A study of Mus musculus with 53 samples.

Results

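The comparison described here sets WGD- tumours grown under an antibody against CD8 beside WGD- tumours grown under an isotype control antibody. It rests on 5 of the 53 libraries of the series, chosen by the titles of the samples: 2 libraries under anti-CD8 and 3 under isotype. Per the labels, the injected cells were TA3 Hauschka, a line from a mouse mammary tumour, that had been made into a variant whose genome was not doubled as a whole (WGD-) and a variant in which it was (WGD+). The cells were mixed with Matrigel and placed into the inguinal mammary fat pad of A/J mice, an inbred strain with T and B cells. The mice were female and 6 weeks old. Antibody was given over 14 days. All 5 tumours therefore share host, line, form and site, and differ in the antibody named on the label. The sources used here give neither the clone and dose of the antibody nor the identity of the isotype control. The tumours come from 1 cell line, and the labels do not say whether each library is a separate animal. Each p-value therefore sets a difference only against the scatter between libraries, which may be technical. In the main fit that scatter is taken over all 17 libraries of the antibody experiment, those outside this comparison included.

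CD8 is a surface coreceptor made of an alpha and a beta chain, encoded by Cd8a and Cd8b1, and is carried by the T cells that recognise peptides on MHC class I molecules and kill the cells that show them. Such T cells kill with perforin and granzymes and release interferon-gamma. That cytokine binds a receptor found on most cells, and through the kinases JAK1 and JAK2 it acts on target promoters, some of which hold short DNA elements called GAS. Its targets include the transcription factor IRF1 and form a large programme: the chemokines Cxcl9 and Cxcl10, guanylate-binding proteins, immunity-related GTPases, the immunoproteasome, MHC molecules and the checkpoint ligand PD-L1.

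Levels are given as log2(CPM + 1), where CPM is the read count after the authors' scaling to library size (TMM), and differences are anti-CD8 minus isotype on that scale. Each standard error (SE) is from limma with all 17 libraries of the antibody experiment in the model. A difference on this scale understates the change of a low gene. The 5 libraries held 9.70 to 15.5 M assigned reads, so that 1 read was worth 0.0623 to 0.104 CPM. Epithelial markers were high in all 5: the keratin gene Krt8 lay between 9.58 and 10.11 and Epcam between 7.85 and 8.27. Levels of genes typical of muscle, fat and liver differed between the isotype libraries, and the source of this RNA was not tested. The 10 skeletal muscle genes summed to 5030 CPM in isotype replicate 2 and to 30.1 to 168 CPM in the other libraries. The 10 adipocyte genes summed to 739 CPM in isotype replicate 3 and to 67.8 to 91.2 CPM in the other libraries. The 10 liver secretory genes, of which 3 passed the filter on low values, summed to 20.1, 547 and 116 CPM in isotype replicates 1 to 3 and to 26.6 and 19.3 CPM in the anti-CD8 libraries. Hp, 1 of those that passed, was at 3.93, 5.59 and 6.56 in isotype replicates 1 to 3 and made up most of the sum in replicate 3. Isotype replicate 1 correlated across genes more closely with anti-CD8 replicate 1 (r = 0.981) than with isotype replicates 2 (0.965) and 3 (0.974).

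Transcripts of the CD8 chains, of killing, of interferon-gamma and of the genes it induces were lower under anti-CD8, while genes induced by p53 lay higher. In the test across 13840 genes, with the spread taken over all 17 libraries of the antibody experiment, 1 gene passed (limma, adjusted p under 0.05), which is 0.00723% of the genes tested. At an unadjusted p under 0.05 there were 1671 genes (12.1%), 701 of them lower and 970 higher under anti-CD8, and voom on recovered reads called 0 (1602 at an unadjusted p under 0.05). When the model held the 5 compared libraries alone, 170 genes passed (1.23%), 121 lower and 49 higher. The groups did not overlap for 2641 genes that were lower (19.1%) and 3247 that were higher (23.5%), 42.5% in all, and each count below is to be read against these shares. In what follows, a member is said to pass the 5-library model where its adjusted p there was under 0.05. That model has 3 residual degrees of freedom. With 17 libraries no gene other than Apoc1 passed, so other differences below are values whose adjusted p missed the threshold.

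Cd8a (chromosome 6, 71373427 to 71379173) and Cd8b1 (chromosome 6, 71322788 to 71337494), the genes of the protein the antibody binds, were looked at first as a check of the labels. Cd8a was at 1.53, 3.21 and 3.10 under isotype and at 0.67 and 0.38 under anti-CD8. Cd8b1 was at 0.58, 2.53 and 2.24 under isotype and at 0 in both anti-CD8 libraries. Both chains were thus lower in each anti-CD8 library than in each isotype library, in the direction of the labels, and isotype replicate 1 was the lowest of its group. Cd8a averaged 5.92 CPM under isotype and 0.444 CPM under anti-CD8, from 229 and 11 reads, a difference of -2.09 (SE 0.86, limma adjusted p = 0.389). Cd8b1 averaged 3.01 CPM from 119 reads under isotype against 0 reads, which with a floor of 3 reads over both anti-CD8 libraries is at least 25.4-fold lower, for counting error only. Its fitted difference was -1.79 (SE 0.72, adjusted p = 0.385). An exact two-sided permutation test over the 5 libraries gave p = 0.2 for each chain, and the smallest p that 2 against 3 libraries allow is 0.1. In bulk RNA, fewer cells of a type and less RNA per cell cannot be told apart.

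**Figure D1:**
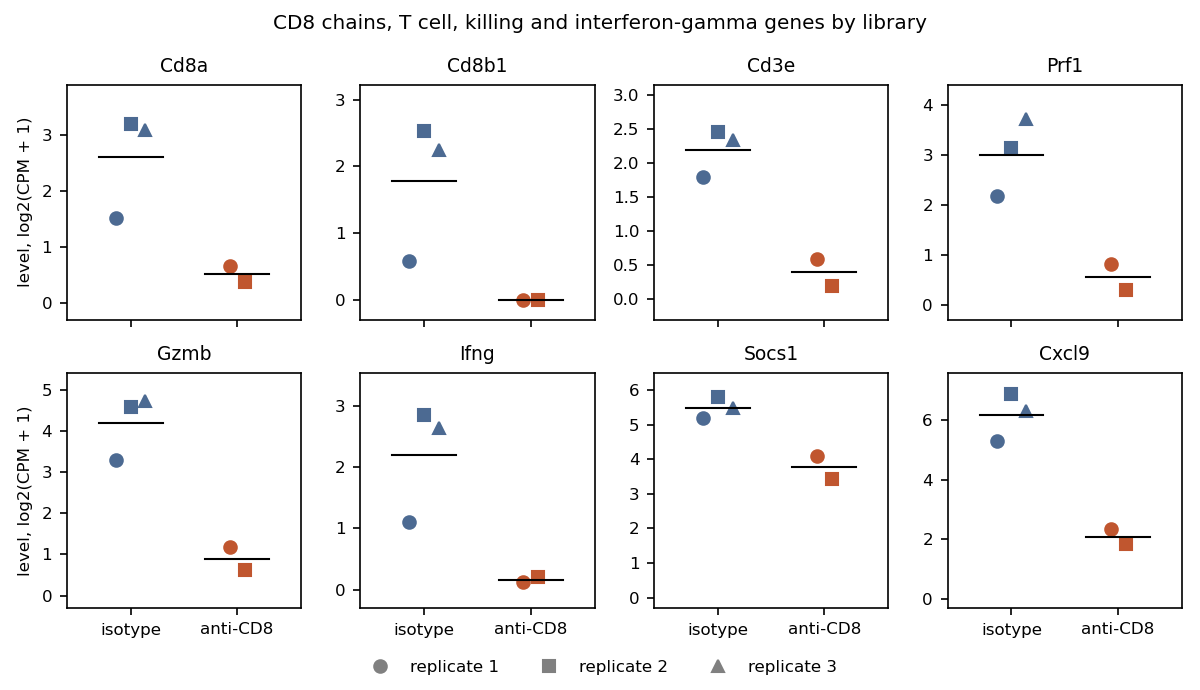
Level of 8 genes in each of the 5 libraries of WGD- tumours (y, log2(CPM + 1)), by antibody (x), with a symbol per replicate and a line at the group mean. In each panel the 2 anti-CD8 libraries lie below the 3 isotype libraries, and isotype replicate 1 is the lowest of the isotype libraries.

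The gene that passed the test across all genes was Apoc1, which encodes a small apolipoprotein made by macrophages and the liver (chromosome 7, 19689481 to 19692660 in mm10). It stood at 2.75, 3.56 and 2.79 in isotype replicates 1 to 3 and at 0.95 and 0.80 in anti-CD8 replicates 1 and 2. The groups did not overlap, and Apoc1 fell by 2.16 (SE 0.30, limma adjusted p = 0.0249), from a mean of 7.50 to 0.836 CPM. Apoc1 was highest in isotype replicate 2, the library with the most RNA of liver secretory genes. In isotype replicate 1, where those genes summed to 20.1 CPM (26.6 and 19.3 under anti-CD8), Apoc1 was at 2.75. A large part of these sums came from 1 member, Hp, at 3.93 in isotype replicate 1 and at 4.09 and 3.20 under anti-CD8. Neither the source of Hp nor the part of liver RNA in the values of Apoc1 was tested. Without isotype replicate 2 the difference of Apoc1 was -1.90 (limma adjusted p = 0.0927). The call was also lost with a pseudocount of 0.5, after quantile normalization, by voom, and when isotype replicate 3 or either anti-CD8 library was left out. Over the alternatives its adjusted p lay between 0.00794 and 0.901.

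**Figure D2:**
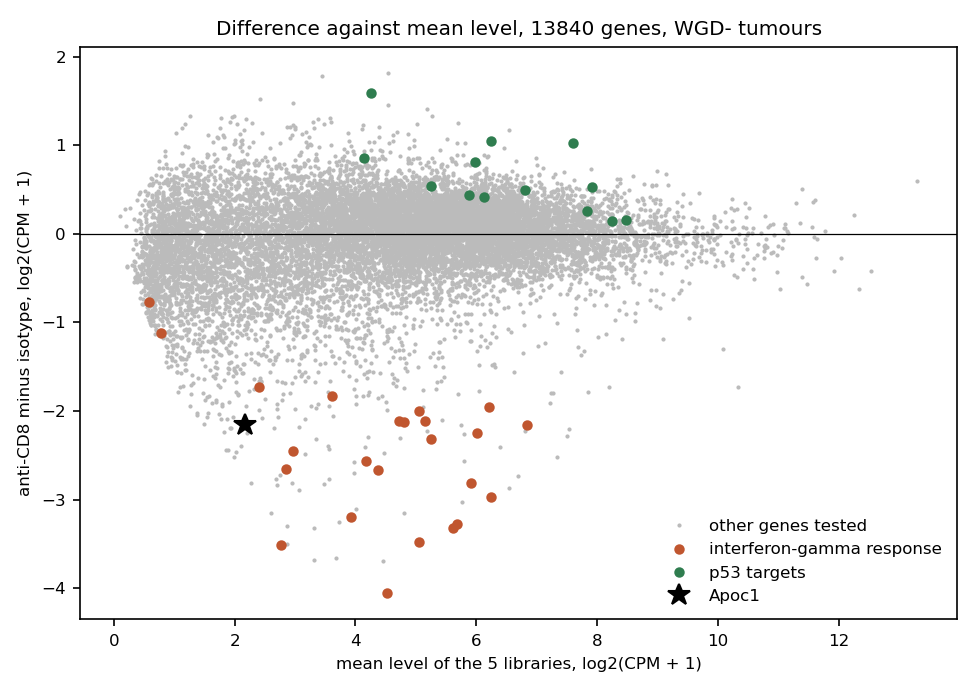
Difference between anti-CD8 and isotype libraries of WGD- tumours (y, log2(CPM + 1)) against the mean level of the 5 libraries (x, log2(CPM + 1)) for 13840 genes, with 24 interferon-gamma response genes, 13 p53 targets and Apoc1 marked. The interferon-gamma response genes lie between -4.06 and -0.77 and the p53 targets between 0.15 and 1.59.

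Genes that mark all T cells were lower, but not all alike. Of the 15 pan T cell genes tested, 9 were lower without overlap (19.1% of all genes) and 1 was higher, 4 passed the 5-library model as lower (0.874% of all genes), and the median difference was -1.03, against 0.01 over all genes. Cd3e, a chain of the T cell receptor complex, was at 1.79, 2.45 and 2.34 under isotype and at 0.59 and 0.20 under anti-CD8 (-1.80, SE 0.61, limma adjusted p = 0.368 with 17 libraries and 0.0423 with 5). Its partners Cd3d (-2.06) and Cd3g (-1.90) and the adhesion receptor Cd2 (-2.02) also passed the 5-library model. The signalling kinase gene Zap70 differed by -1.88 and its adaptor Lat by -1.53, both without overlap. In contrast the kinase gene Lck differed by -0.33 and lay between 3.83 and 4.30 in all 5 libraries, the zeta chain gene Cd247 lay between 2.69 and 2.99, and Cd5, an inhibitory receptor, was higher (1.57 to 1.86 against 1.97 and 2.54). Lck stood above Cd3e in every library, and which cells carried it was not tested. Transcripts of the T cell receptor constant regions were not analysed here.

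The genes of killing were separated by wider gaps. Of 12 cytotoxic effector genes tested, 11 were lower without overlap, 12 of 12 differences were below 0, and the median was -1.49. Prf1, perforin (chromosome 10, 61297833 to 61304680), was at 2.18, 3.14 and 3.72 against 0.81 and 0.29, a 16.0-fold lower mean CPM (-2.46, SE 0.65, adjusted p = 0.368 with 17 libraries and 0.0428 with 5). Gzmb, granzyme B (chromosome 14, 56258838 to 56262260), was at 3.29, 4.58 and 4.71 against 1.18 and 0.61, 21.2-fold lower in CPM (-3.30, SE 1.04, adjusted p = 0.368 and 0.0239). Nkg7, a granule membrane protein of killer cells, was at 2.28, 3.40 and 3.31 against 0.74 and 0.20 (-2.52, 5-library adjusted p = 0.0235). These 3 were the members of the list that passed the 5-library model, and the groups did not overlap for any of them. The chemokine gene Ccl5, made by effector T cells and other cells, differed less (-1.06, with 2.21 and 2.15 under anti-CD8). Klrg1, a receptor of terminally differentiated effector cells, was the member whose groups overlapped.

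The granzyme genes beside Gzmb on chromosome 14 were added to the lists after their values were seen. Gzmg was at 4.02, 3.56 and 6.77 under isotype against 1.12 and 1.08 (-3.68, SE 0.87), and Gzmf at 3.83, 3.57 and 6.51 against 1.71 and 0.92 (-3.32). Gzmd, Gzmc and Gzme differed by -2.83, -2.77 and -1.99. The 8 granzyme genes tested had a median of -2.80, and of -2.04 without isotype replicate 3. Gzmc, Gzmd, Gzme, Gzmf and Gzmg were highest in isotype replicate 3, whereas Gzmb stood nearly level in isotype replicates 2 and 3. Their coding sequences resemble each other closely, so reads may have been shared or split between them by the authors' counting, and their separate values are uncertain.

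Receptors of activated and exhausted T cells were lower as well. All 10 tested members of the checkpoint list lay below their isotype levels without overlap, with a median of -1.14 and 0 past the 5-library model. Pdcd1, which encodes PD-1, was at 1.69, 2.97 and 3.01 against 0.95 and 0.10 (-2.03, SE 0.73, adjusted p = 0.368). Havcr2 (TIM-3, also carried by myeloid cells) differed by -1.37, Lag3 by -1.14 and the costimulatory receptor gene Tnfrsf9 by -1.38. Genes of CD4 helper and regulatory T cells had a smaller median of -0.65, with 5 of 11 lower without overlap. Cd4, which myeloid cells carry too, was at 1.72, 1.78 and 3.50 against 1.43 and 1.08. Foxp3, the factor of regulatory T cells, was at 4.75, 4.30 and 4.76 against 3.98 and 3.94 (-0.64, SE 0.24, adjusted p = 0.378), and Il2ra, the interleukin 2 receptor alpha chain, differed by -1.32. In each of the 5 libraries Foxp3 stood above Cd4 and Cd3e, and which cells carried it was not tested.

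Natural killer (NK) cells also hold perforin and granzymes. Of 7 NK genes tested, 5 were lower without overlap and the median was -0.70. Il2rb, the receptor chain for interleukins 2 and 15 that T cells share, was at 2.63, 3.20 and 3.47 against 1.18 and 0.53 (-2.24, SE 0.73, adjusted p = 0.368 with 17 libraries and 0.0233 with 5). Ncr1, a receptor largely restricted to NK cells, was low throughout at 0.86, 1.13 and 1.29 against 0.59 and 0.20 (-0.70, adjusted p = 0.497). Klrb1b and Klrb1c, by contrast, were high in all 5 libraries, at 6.99 to 7.82 and 4.43 to 5.31, and differed by -0.15 and 0.12. Both stood well above Ncr1 in every library, and which cells carried them was not tested. B and plasma cell genes were mostly low: of 12, 5 were tested with 2 lower and 1 higher without overlap, and the list summed to 11.3 to 16.9 CPM in the 5 libraries.

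The cytokine itself followed the CD8 chains. Ifng (chromosome 10, 118441046 to 118445892) was at 1.10, 2.85 and 2.65 under isotype and at 0.12 and 0.20 under anti-CD8, a difference of -2.05 (SE 0.78, limma adjusted p = 0.381). These levels rest on 14, 100 and 51 reads against 1 and 2, a 36.7-fold lower pooled rate with an exact 95% interval of 12.3 to 180 for counting error only. Tnf, the other classical cytokine of activated T cells and macrophages, was at 2.51, 3.21 and 2.39 against 0.42 and 0.80 (-2.09, SE 0.53, adjusted p = 0.368 with 17 libraries and 0.0258 with 5). The groups did not overlap for either gene. The receptor and the kinases differed far less: Ifngr1 by 0.14, Ifngr2 by -0.15, Jak1 by 0.18 and Jak2 by -0.31. Socs1, a feedback inhibitor of the pathway, was at 5.21, 5.81 and 5.48 against 4.09 and 3.44 (-1.74, 5-library adjusted p = 0.0208). Of the 11 genes of this axis described here 7 were lower and 1 higher without overlap, and the median was -0.31.

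Genes induced by interferon-gamma had the most negative median of the 34 lists, leaving aside the lists added after their values were seen, of which the granzyme family stood lower. The skeletal muscle list came close at -2.29, but with 0 of 10 genes lower without overlap, and stood at -0.27 without isotype replicate 2. All 24 members of the interferon-gamma list were tested, and 24 of 24 differences were below 0 (48.9% of all genes were). Of them 23 were lower without overlap (19.1% of all genes), 6 passed the 5-library model (0.874%), and the median was -2.38. At an unadjusted p under 0.05, 16 of 24 were lower (5.07% of all genes) and 6 by voom. The mean level of the list was 4.56, 5.94 and 5.66 in isotype replicates 1 to 3 and 2.93 and 2.89 in the anti-CD8 libraries. Isotype replicate 1 was the lowest of its group here too, as it was for the CD8 chains and Ifng. With each of the 5 libraries left out in turn, 24 of 24 differences stayed below 0 and the median lay between -2.77 and -2.08. The count at an unadjusted p under 0.05 was 22 without isotype replicate 1 but 7 without isotype replicate 2 or 3, 5 without anti-CD8 replicate 1 and 6 without anti-CD8 replicate 2. The median SD of these genes was 0.76 over the isotype libraries and 0.14 over the anti-CD8 libraries.

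Cxcl9, a chemokine that draws CXCR3-bearing T cells (chromosome 5, 92321347 to 92328079), showed the largest difference of the list. It was at 5.28, 6.88 and 6.29 under isotype and at 2.33 and 1.85 under anti-CD8, 23.2-fold lower in CPM (-4.06, SE 1.63, adjusted p = 0.389 with 17 libraries and 0.0481 with 5). Its neighbour Cxcl10 was at 5.46, 6.34 and 5.74 against 3.91 and 3.78 (-2.0, 5-library adjusted p = 0.0201). Irf1, the transcription factor (chromosome 11, 53770014 to 53778374), was at 7.16, 7.93 and 8.0 against 5.60 and 5.48 (-2.16, SE 0.67, adjusted p = 0.368 and 0.0233). Ubd, a ubiquitin-like modifier induced jointly by interferon-gamma and TNF, was at 3.28, 4.54 and 4.72 against 0.59 and 0.74, 31.9-fold lower in CPM (-3.51, 5-library adjusted p = 0.0201). Cd274, which encodes the checkpoint ligand PD-L1 (chromosome 19, 29367455 to 29388095), was at 4.70, 5.24 and 5.66 against 2.70 and 2.58, 7.08-fold lower in CPM (-2.56, SE 0.82, adjusted p = 0.368 with 17 libraries and 0.0101 with 5). All of these genes kept the groups apart. Pdcd1lg2, which encodes the related ligand PD-L2 and comes from the list of genes that shield cells from killing, was at 2.38, 3.44 and 2.65 against 0.88 and 0.38 (-2.19, 5-library adjusted p = 0.0303).

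The families of interferon-inducible GTPases were lower as blocks. The guanylate-binding protein genes, which act against parasites and bacteria inside cells, differed by -3.48 (Gbp4), -3.20 (Gbp5), -2.97 (Gbp2b), -2.81 (Gbp2), -2.65 (Gbp6), -2.25 (Gbp7), -2.12 (Gbp9) and -2.11 (Gbp3). Of these 8, Gbp7 passed the 5-library model (adjusted p = 0.0482) and all were free of overlap. The immunity-related GTPase genes Iigp1, Igtp, Irgm2 and Irgm1 differed by -3.32, -3.28, -2.13 and -1.96, none past the 5-library model. Nos2, the inducible nitric oxide synthase, was at 5.35, 6.43 and 6.75 against 3.85 and 3.87 (-2.32, SE 0.61, adjusted p = 0.368). Cxcl11 was the member whose groups overlapped, at 0.11 to 1.29 against 0 and 0.22. Members of the Gbp family resemble each other in sequence, and the sources used here do not say how the authors' counting split shared reads.

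**Figure D3:**
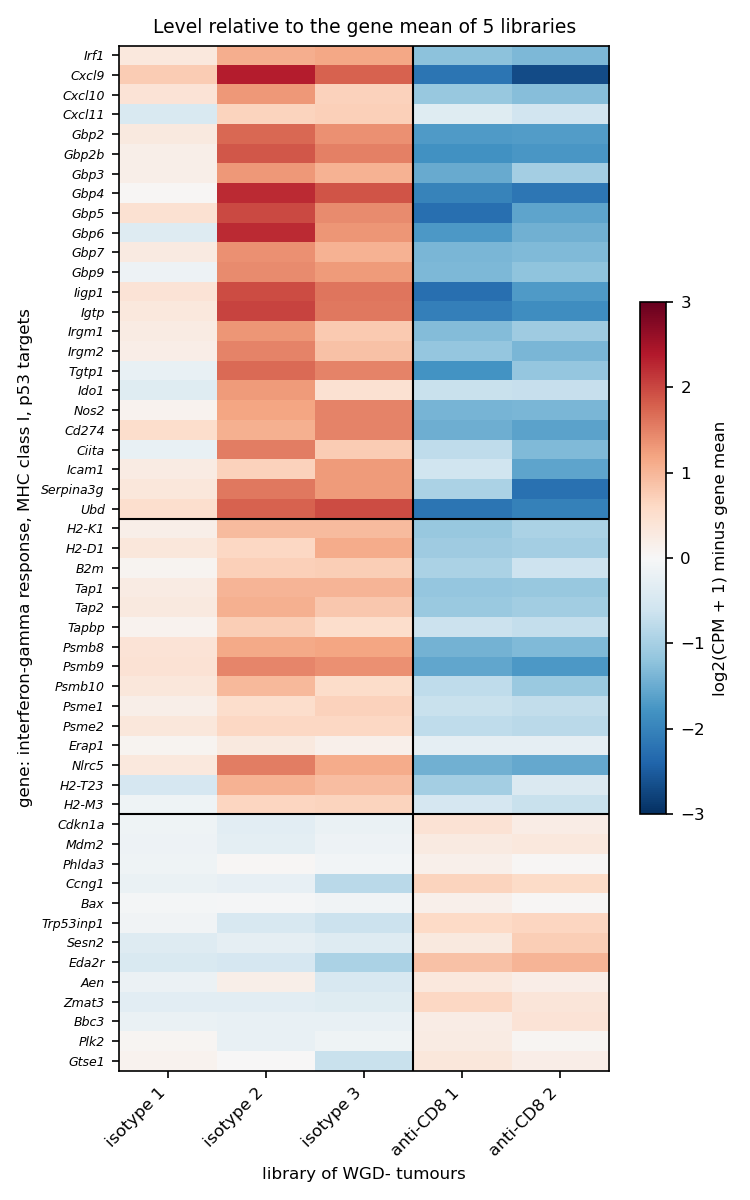
Level of 24 interferon-gamma response genes, 15 MHC class I presentation genes and 13 p53 targets (rows) in each of the 5 libraries (columns), as log2(CPM + 1) minus the mean of the gene over the 5 libraries. The first and second blocks are above their mean in isotype replicates 2 and 3 and below it in both anti-CD8 libraries, with isotype replicate 1 between them for all but Cxcl11 and H2-T23, and the third block is above its mean in both anti-CD8 libraries.

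The promoters of the 24 interferon-gamma response genes were searched for the elements bound by the factors of the pathway. The list is made of known targets of the cytokine. Frequent matches follow from that choice and say nothing about these tumours. The windows run from 250 bases before to 50 bases after the gene start in RefSeq (GRCm38.p6), and 16 of the 24 genes matched an entry. A pair of letter patterns was searched on both strands: GAS, TTCNNNGAA, and ISRE, the interferon-stimulated response element, read here as GAAA and GAAA with any 2 bases between. GAS was found in 8 of 16 windows (50%, against 8.42% of 27025 windows), ISRE in 10 (62.5%, against 3.49%) and either in 13 (81.2%, against 11.4%). In the type I interferon list GAS was found in 3 of 16 windows (18.8%), ISRE in 9 (56.2%) and either in 10 (62.5%). In the MHC class I list GAS was found in 2 of 13 (15.4%), ISRE in 4 (30.8%) and either in 6 (46.2%). Of the 11 p53 target promoters matched, 1 held either pattern. The windows of Cxcl9, Cd274 and Ubd held neither, which says only that these letters are absent from these windows. The promoters of 4 GTPase genes are printed 5′ to 3′ on the strand of the gene, since they show how the patterns sit in this block of genes, and capitals mark the matches. They are those of Igtp (chr11:58199306-58199605), Gbp5 (chr3:142496684-142496983), Gbp2b (chr3:142594597-142594896) and Gbp2 (chr3:142620413-142620712), all on the plus strand.
Igtp: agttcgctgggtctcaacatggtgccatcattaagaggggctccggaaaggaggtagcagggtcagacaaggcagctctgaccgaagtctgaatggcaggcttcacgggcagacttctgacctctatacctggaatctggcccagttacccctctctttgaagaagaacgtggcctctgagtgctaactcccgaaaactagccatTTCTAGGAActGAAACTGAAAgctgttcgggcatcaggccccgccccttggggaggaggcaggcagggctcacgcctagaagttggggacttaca
Gbp5: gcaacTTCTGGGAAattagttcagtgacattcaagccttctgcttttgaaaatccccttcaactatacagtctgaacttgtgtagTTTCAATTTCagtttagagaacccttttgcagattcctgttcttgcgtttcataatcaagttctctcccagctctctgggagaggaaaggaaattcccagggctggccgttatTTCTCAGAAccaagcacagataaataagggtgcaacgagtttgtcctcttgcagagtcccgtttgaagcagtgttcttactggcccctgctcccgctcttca
Gbp2b: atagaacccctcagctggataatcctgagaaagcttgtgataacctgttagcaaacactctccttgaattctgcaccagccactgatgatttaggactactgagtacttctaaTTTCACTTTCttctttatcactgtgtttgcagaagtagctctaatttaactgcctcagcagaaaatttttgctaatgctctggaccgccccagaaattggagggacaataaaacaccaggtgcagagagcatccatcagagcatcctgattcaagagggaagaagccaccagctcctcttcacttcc
Gbp2: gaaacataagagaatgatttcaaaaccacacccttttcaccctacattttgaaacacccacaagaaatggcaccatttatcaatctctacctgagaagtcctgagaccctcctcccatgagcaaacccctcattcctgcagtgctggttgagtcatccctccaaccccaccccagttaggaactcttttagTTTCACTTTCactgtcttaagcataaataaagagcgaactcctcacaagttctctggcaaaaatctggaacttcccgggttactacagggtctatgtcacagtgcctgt
In Igtp the GAS match begins 45 and the ISRE match 34 bases before the start, in Gbp5 the GAS matches begin 245 and 52 and the ISRE match 165 bases before it, and in Gbp2b and Gbp2 the ISRE match begins 137 and 59 bases before it. A match describes the sequence and is not a site shown to be bound. The levels of these 4 genes under isotype and anti-CD8 are 5.98, 7.70 and 7.26 against 3.62 and 3.80 for Igtp and 4.37, 5.90 and 5.33 against 1.67 and 2.33 for Gbp5. Gbp2b was at 6.42, 8.12 and 7.76 against 4.42 and 4.51, and Gbp2 at 6.19, 7.62 and 7.29 against 4.21 and 4.23. In each of the 4, both anti-CD8 libraries lay below all 3 isotype libraries.

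Presentation on MHC class I, by which cells display peptides to CD8 T cells, was lower along the whole route. All 15 genes were tested, 15 of 15 differences were below 0, 14 were lower without overlap, 12 passed the 5-library model (0.874% of all genes), and the median was -1.56. The immunoproteasome catalytic subunit genes Psmb8, Psmb9 and Psmb10, which cut proteins into peptides, differed by -2.28, -2.74 and -1.56. Psmb8 (chromosome 17, 34197721 to 34201454) was at 7.91, 8.65 and 8.69 against 6.08 and 6.19, 5.07-fold lower in CPM (SE 0.77, adjusted p = 0.368 with 17 libraries and 0.0201 with 5). Psme1 and Psme2, the activator subunits, differed by -1.17 and -1.32. Psme2 was at 8.12, 8.39 and 8.40 against 7.01 and 6.96 (SE 0.41, adjusted p = 0.368 with 17 libraries and 0.0101 with 5). The peptide transporter genes Tap1 and Tap2 differed by -1.91 and -1.79 and the loading factor gene Tapbp by -1.14.

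At the surface end of the route, H2-K1, a class I heavy chain (chromosome 17, 33996017 to 34000347), was at 10.51, 11.27 and 11.29 against 9.19 and 9.39, 3.42-fold lower in CPM (-1.73, SE 0.72, adjusted p = 0.392 and 0.0247). H2-D1 differed by -1.73 and the light chain gene B2m by -1.30, and both passed the 5-library model. The heavy chain genes of this locus are near-identical in places, so their separate values are uncertain. Nlrc5, the transactivator of class I genes, was at 4.80, 6.02 and 5.59 against 3.04 and 2.95 (-2.47, 5-library adjusted p = 0.0315). The trimming peptidase gene Erap1 differed least (-0.45), and the non-classical class I gene H2-T23 was the member whose groups overlapped. When single libraries were dropped, 15 of 15 class I genes stayed below 0, with medians between -1.72 and -1.39, and the count at an unadjusted p under 0.05 went from 11 to 13 without isotype replicate 1, to 5 without isotype replicate 2 or either anti-CD8 library, and to 6 without isotype replicate 3. Class I transcripts were still abundant under anti-CD8: H2-K1 averaged 626 CPM and B2m 634 CPM.

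Class II presentation, carried by macrophages, dendritic and B cells, was lower without overlap for 10 of 10 genes tested, with a median of -1.79 and 0 past the 5-library model. H2-Ab1 was at 6.79, 8.25 and 8.03 against 5.63 and 4.01 (-2.87, SE 1.21, adjusted p = 0.396), and the invariant chain gene Cd74 differed by -2.52. Here the anti-CD8 libraries stood apart from each other, with replicate 2 the lower. Macrophage markers showed the same order, and their part in the class II values was not tested. The 16 macrophage and monocyte genes summed to 792, 1040 and 1590 CPM under isotype and to 743 and 395 CPM under anti-CD8, with 9 of 16 lower without overlap and a median of -1.12, which was -0.68 without anti-CD8 replicate 2. None of the 16 was at 0 reads in both anti-CD8 libraries, and the summed levels of the closest pair of libraries across the groups were 743 and 792 CPM. The phagocyte marker Adgre1 (F4/80) overlapped between groups, at 3.24, 4.22 and 4.50 against 3.83 and 2.89, as did Csf1r and the mannose receptor gene Mrc1.

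Within the macrophage list, the members that passed the 5-library model were Fcgr1, Ly6c2 and Msr1. Fcgr1, the high-affinity IgG receptor, was at 4.18, 4.92 and 4.94 against 2.95 and 2.90 (-1.75, adjusted p = 0.0208). Ly6c2, which marks inflammatory monocytes, was at 2.59, 3.03 and 2.99 against 0 and 0.86 (-2.44, adjusted p = 0.0208). Msr1, a scavenger receptor, differed by -1.05. Fcgr1 and Ly6c2 are themselves known to be raised by interferons. Cd14 was at the same mean level in both groups (a difference of 0.00), and the complement gene C1qa, abundant in tumour macrophages, was at 7.31, 8.13 and 8.64 against 7.02 and 5.92 (-1.56).

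Type I interferons induce an overlapping set of genes. All 22 members of that list had a difference below 0, 15 were lower without overlap, 4 passed the 5-library model, and the median was -0.96, smaller than for the interferon-gamma list. Isg15, a ubiquitin-like protein, was at 6.73, 6.84 and 6.57 against 5.46 and 5.73 (-1.12, SE 0.35, adjusted p = 0.368 with 17 libraries and 0.0201 with 5). Bst2 (tetherin), Xaf1 and Rtp4 were the others that passed the 5-library model. Zbp1, a nucleic acid sensor, differed most, by -2.22. The antiviral genes Ifit2, Oasl1, Usp18 and Ddx58 lay near their isotype levels, at -0.23, -0.20, -0.23 and -0.22, with overlapping groups.

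Inflammatory genes of the NF-kB and interleukin 1 routes were lower too. Of 16 genes, 16 had a difference below 0, 12 were lower without overlap, 2 passed the 5-library model, and the median was -0.65. Ccl2, the chemokine that draws monocytes, was at 4.57, 4.56 and 4.59 against 3.31 and 3.25 (-1.29, SE 0.51, adjusted p = 0.381 with 17 libraries and 0.0201 with 5). Il1rn, the interleukin 1 receptor antagonist, differed by -1.83 (5-library adjusted p = 0.0201), Il1b by -1.85 and the neutrophil chemokine gene Cxcl2 by -1.97. Ccl3 and Ccl4, chemokines of activated T cells and macrophages in a family added after its values were seen, differed by -1.80 and -2.08 (5-library adjusted p = 0.0308 and 0.0215). Lcn2, lipocalin 2, was the most abundant member and lay between 9.74 and 10.18 in all 5 libraries. Neutrophil markers had a median of -0.19, with 3 of 10 lower without overlap, and the median was -0.48 without isotype replicate 2 and -0.06 without isotype replicate 3.

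Acod1 and Csf3 were singled out after their values were seen, as genes with some of the smallest p-values of the table. Acod1, the enzyme of activated macrophages that makes itaconate (chromosome 14, 103046977 to 103056573), was at 4.85, 5.11 and 5.45 against 1.07 and 1.88, 18.3-fold lower in CPM (-3.66, SE 0.67, adjusted p = 0.211 with 17 libraries and 0.00373 with 5). Csf3, the growth factor of neutrophils, was at 5.94, 5.66 and 6.49 against 4.31 and 4.24 (-1.76, SE 0.34, adjusted p = 0.249 and 0.0208). The mRNA-destabilising factor gene Zfp36 differed by -1.09 (5-library adjusted p = 0.0423). For these 3 genes every isotype library, replicate 1 included, lay well above both anti-CD8 libraries.

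**Figure D4:**
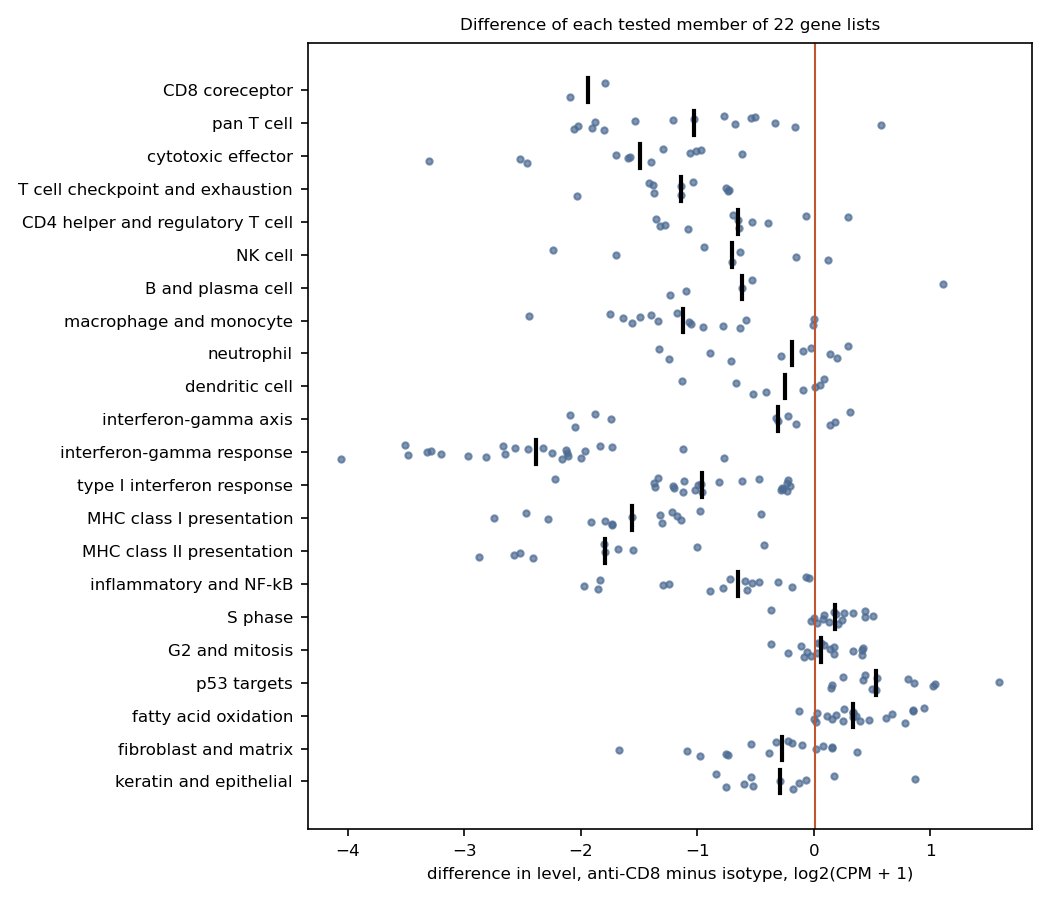
Difference between anti-CD8 and isotype libraries (x, log2(CPM + 1)) for each tested member (points) of 22 gene lists (y), with a bar at the median of each list and a line at the median of all genes, 0.01. The interferon-gamma response has a median of -2.38, MHC class II of -1.79 and MHC class I of -1.56, and p53 targets have a median of 0.53.

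In the other direction, genes that p53 induces on stress were higher under anti-CD8. All 13 were tested, 13 of 13 differences were above 0 (51.1% of all genes were), 13 were higher without overlap (23.5% of all genes), 4 passed the 5-library model as higher (0.354% of all genes), 6 were higher at an unadjusted p under 0.05 (7.01%), and the median was 0.53. Eda2r, a receptor of the TNF receptor family (X chromosome, 97333840 to 97377216), was at 3.80, 3.76 and 3.31 under isotype and at 5.14 and 5.29 under anti-CD8, 3.16-fold higher in CPM (1.59, SE 0.33, adjusted p = 0.347 with 17 libraries and 0.0201 with 5). Ccng1, cyclin G1, was at 7.41, 7.36 and 6.80 against 8.26 and 8.17 (1.02, SE 0.24, adjusted p = 0.368 and 0.0423). Trp53inp1 and Zmat3 differed by 1.04 and 0.81 and also passed the 5-library model. The 2 classical targets differed less: the cell cycle inhibitor gene Cdkn1a was at 7.80, 7.60 and 7.72 against 8.34 and 8.13 (0.53), and Mdm2, which ends the p53 response, at 6.65, 6.52 and 6.66 against 7.09 and 7.13 (0.50, SE 0.15, adjusted p = 0.368). In every alternative tried, 13 of 13 stayed above 0, with medians between 0.50 and 0.61. Among pro-apoptotic targets Bbc3 differed by 0.54 and Bax by 0.16. The mean level of the list was 6.36, 6.31 and 6.12 under isotype and 6.92 and 6.89 under anti-CD8, and Trp53 itself, named after its values were seen, differed by 0.32 without overlap.

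The S phase list had a median of 0.18, with 4 of 16 higher and 1 lower without overlap, and the G2 and mitosis list a median of 0.06, with 4 of 17 higher and 1 lower. Without isotype replicate 3 these medians were 0.00 and -0.07, and without isotype replicate 1 they were 0.29 and 0.18. Mki67 was at 8.58, 8.35 and 8.06 against 8.13 and 8.37, and the ribonucleotide reductase genes Rrm1 and Rrm2 differed by 0.44 and 0.51. Hypoxia and glycolysis genes had a median of -0.40, and among them the hexokinase gene Hk2 had the smallest p (8.59, 8.31 and 8.50 against 7.45 and 7.89, -0.80, SE 0.26, adjusted p = 0.368). The median of that list was -0.08 without anti-CD8 replicate 1 and -0.70 without anti-CD8 replicate 2. Genes of endoplasmic reticulum stress and ATF4 had a median of 0.01 (-0.21 without anti-CD8 replicate 2 and 0.21 without replicate 1), and within them Psat1, an enzyme of serine synthesis, stood out at 6.85, 6.77 and 6.48 against 7.40 and 7.54 (0.77, SE 0.15, adjusted p = 0.211 and 0.0426).

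Enzymes of fatty acid oxidation, a list added after its values were seen, were also higher: 14 of 21 without overlap, 3 past the 5-library model, with a median of 0.34. Etfdh, which passes electrons from this pathway to the respiratory chain, was at 4.97, 5.07 and 4.71 against 5.72 and 5.82 (0.85, 5-library adjusted p = 0.0423), and Hadh, a step of the beta-oxidation spiral, at 6.65, 6.48 and 6.44 against 7.16 and 7.13 (0.62, SE 0.14, adjusted p = 0.347). Crot and Hsdl2, of peroxisomes, differed by 0.85 and 0.95. Of single genes chosen after their values were seen, Kitl, the ligand of the receptor KIT, was at 5.22, 5.27 and 5.09 against 6.41 and 6.49 (1.25, SE 0.27, adjusted p = 0.347 and 0.0101). The lipid transfer protein gene Esyt3 was at 4.07, 4.22 and 4.21 against 5.33 and 5.24 (1.11, SE 0.21, adjusted p = 0.211 and 0.0208), and the potassium channel gene Kcnk1 differed by 0.95. For Etfdh, Hadh, Kitl and Esyt3 the gap between the groups was wider than the range within either group.

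Of 13 genes by which cells are recognised or shielded from killing, 6 were lower without overlap (19.1% of all genes) and 2 higher (23.5% of all genes). Their median was -0.27. Ulbp1, a ligand of the killer cell receptor NKG2D, was at 2.53, 2.5 and 2.42 against 3.69 and 3.73, 2.63-fold higher in CPM (1.23, SE 0.40, adjusted p = 0.368 and 0.0423). The death receptor gene Fas differed by -0.15 and overlapped between groups, and Cd47, which signals phagocytes not to eat a cell, differed by -0.36. Keratin and epithelial genes had a median of -0.29, with 9 of 11 below 0, 3 lower and 1 higher without overlap. The member that passed the 5-library model was Elf3, an epithelial transcription factor, which was at 7.01, 6.69 and 6.66 against 5.90 and 6.00 (-0.84, SE 0.49, adjusted p = 0.469 with 17 libraries and 0.0351 with 5). The member higher without overlap was Cdh1, E-cadherin, at 6.17, 5.51 and 5.86 against 6.64 and 6.79 (0.87, SE 0.38, adjusted p = 0.400). Of the 6 mammary secretory genes tested, 3 lay below 0 and 3 above, and their median of 0.22 was -0.38 without anti-CD8 replicate 2. Among them Elf5, a factor of the mammary alveolar lineage, was at 2.98, 2.72 and 2.87 against 3.82 and 4.48 (1.29, 5-library adjusted p = 0.0482). Fibroblast and matrix genes had a median of -0.27, which lay between -0.43 and -0.13 with single libraries left out, and 2 of 16 were lower without overlap.

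The same antibody was given to WGD+ tumours, with 3 libraries under anti-CD8 and 3 under isotype, none of them shared with the WGD- comparison. There 0 genes passed (limma, adjusted p under 0.05), with 1041 genes at an unadjusted p under 0.05 (7.52%). Transcripts of the 2 CD8 chains were scarce in WGD+ tumours under either antibody. They summed to 2.08, 0.533 and 0.504 CPM under isotype and to 0.708, 0.596 and 0.207 CPM under anti-CD8. Their median difference was -0.25, against -1.94 in WGD- tumours. In WGD+ tumours the median difference of the interferon-gamma response was -0.78, of MHC class I -0.09, of macrophage markers 0.88 and of p53 targets 0.01. Markers of other stromal cells also had medians above 0: fibroblast and matrix genes had one of 1.18 (15 of 16 above 0) and endothelial genes of 0.64 (12 of 12 above 0). The mean level of the interferon-gamma list was 4.81, 2.33 and 4.34 in the WGD+ isotype libraries and 3.26, 2.92 and 2.98 in the WGD+ anti-CD8 libraries. WGD+ isotype replicate 2 was thus below the WGD+ anti-CD8 libraries, unlike any WGD- isotype library. The difference between the effects, tested as an interaction, passed for 0 of 13840 genes by limma (2304 at an unadjusted p under 0.05, 16.6%) and for 0 by voom, so no gene was shown to respond differently in the 2 forms. At that unadjusted threshold the interaction was above 0, toward a more negative effect in WGD- tumours, for 10 of 16 inflammatory genes, 8 of 16 macrophage genes, 6 of 16 fibroblast genes, 7 of 12 endothelial genes and 2 of 24 interferon-gamma response genes, beside 6.82% of all genes, and below 0 for 6 of 13 p53 targets, beside 9.83%. Eda2r differed by 1.59 in WGD- and 0.06 in WGD+ tumours, and Ccl2 by -1.29 and 0.98 (limma adjusted p = 0.247 for both interactions). The part of stromal cells in these differences was not tested.

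**Figure D5:**
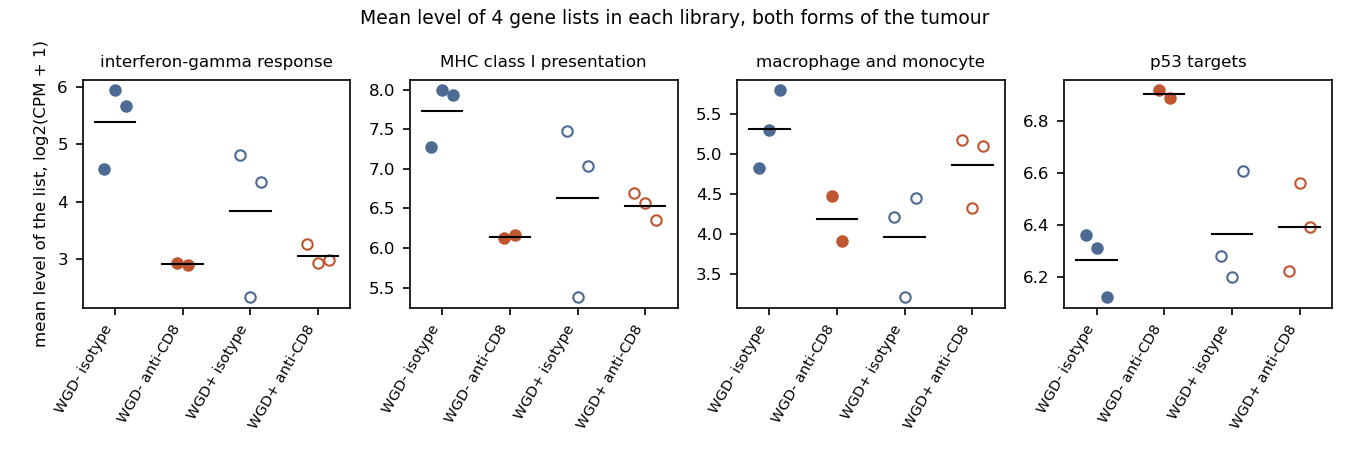
Mean level of 4 gene lists (y, log2(CPM + 1)) in each library of WGD- tumours (filled) and WGD+ tumours (open) under isotype or anti-CD8 (x), with a line at the group mean. For the interferon-gamma response the WGD- isotype libraries lie between 4.56 and 5.94 and the anti-CD8 libraries of both forms between 2.89 and 3.26.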

How the data were processed

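Tumour RNA was sequenced as stranded poly(A) libraries, per the labels' protocols. The authors deposited log2 values of TMM-scaled CPM plus 1 for the antibody experiment (17 libraries, 20185 rows). STAR 2.5.1b, edgeR and mm10 are named in the submitters' processing notes, and the sources used here give neither the counting tool nor its strand setting. The deposited log2 values gave whole reads for 100% of values (tolerance 0.1 read), which set the depths given above at 9.70 to 15.5 M reads.

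Of the rows, 25 date-like symbols, with at most 0.185% of reads, were left out. Genes above 1 CPM in at least 3 of 17 libraries (13840) were fitted with limma 3.58.1 (R 4.3.3, trend and robust) as a mean per group without a replicate block, with Benjamini-Hochberg adjustment over all genes and a threshold of 0.05. Coordinates come from GENCODE M21 and promoters from RefSeq (GRCm38.p6). Summaries and the exact permutation test used Python 3.11.15. The fit was also run on simulated reads with the same spread for all genes and groups. The groups here differ in spread, so that run does not check the calls made here.

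The gene lists (34, with 433 genes) and the members described were chosen with earlier results of these data known. Genes were named by a rule: Cd8a and Cd8b1, called genes, and the members of each list with the smallest p. Further members, and all genes of the added lists, were named after their values were seen. A gene of the interferon-gamma axis is not reported here. Anti-PD-L1 libraries entered the fit for its spread only. The closing section gives the alternatives: gene filters, pseudocounts, quantile normalization, the compared groups alone, a replicate block, voom and each library left out.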

Additional observations from a re-analysis of the deposited data

How the results depend on the processing

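The number of genes called was 1 with 17 libraries in the model. It was 0 with a pseudocount of 0.5, 0 after quantile normalization, 0 by voom on recovered reads and 170 with the 5 compared libraries alone, where 2847 genes had an unadjusted p under 0.05. It was 1 with a pseudocount of 4, with a minimum of 2 libraries and with no filter. Leaving out each compared library in turn gave 0 to 2 genes (674 to 1755 at an unadjusted p under 0.05). The 2 genes without isotype replicate 1 were Apoc1 and Rbp4, a retinol carrier, the latter at -2.70 (limma adjusted p = 0.0478) and named after its value was seen. Rbp4, which the liver also makes, differed by -1.03 without isotype replicate 2. The difference of Apoc1 lay between -2.30 and -1.90 with each library left out, and was -2.53 with a pseudocount of 0.5, -2.01 after quantile normalization and -3.12 by voom. The interaction with the form of the tumour called 0 genes in every alternative run, with 1120 to 3055 genes at an unadjusted p under 0.05.

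The replicate numbers were not shown to pair libraries: same-numbered libraries correlated at -0.150 and -0.0754 in their deviations from the group means. With a replicate block 1 gene was called, 1240 genes had an unadjusted p under 0.05, and Cd8a differed by -2.18 (limma adjusted p = 0.544). The interferon-gamma response then had 8 of 24 genes at an unadjusted p under 0.05 and MHC class I 7 of 15.

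For 165 named genes in 13 alternatives, 2055 of 2145 values kept their direction and their side of the threshold, 7 were no longer called, 57 were newly called and 26 changed sign. The 7 were all of Apoc1 and the 57 came from the compared libraries alone, Rbp4 excepted. The signs that changed belonged to differences that were small or spread widely, and none was called. For Cd14 the difference was 0.00 with a pseudocount of 4, -0.04 after quantile normalization and -0.02 with the replicate block. For Cd247 and Lcn2 it was 0.01 after quantile normalization. With each library left out in turn, the differences ranged from -0.17 to 0.17 for Cd14, -0.56 to 0.12 for Ddx58, -0.16 to 0.05 for Epcam, -0.46 to 0.00 for Ifit2, -0.08 to 0.37 for Ifngr1. They ranged from -0.35 to 0.06 for Ifngr2, -0.40 to 0.01 for Klrb1b, -0.15 to 0.39 for Klrb1c, -0.23 to 0.09 for Lcn2, -0.22 to 0.05 for Mki67. They ranged from -0.81 to 0.79 for Mrc1, -1.52 to 0.29 for Cma1, -1.71 to 0.65 for Mcpt4 and -0.30 to 2.09 for Csn2. The last 3 rest on anti-CD8 replicate 2, without which they were 0.29, 0.65 and -0.30. The causes were not tested.

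Of the 34 list medians, 4 changed sign when a library was left out. Without anti-CD8 replicate 2 the mast cell and eosinophil list went from -0.53 to 0.65, the mammary secretory list from 0.22 to -0.38 and the endoplasmic reticulum stress list from 0.01 to -0.21. Without isotype replicate 3 the G2 and mitosis list went from 0.06 to -0.07, and without isotype replicate 1 the endoplasmic reticulum stress list stood at -0.01. Of 442 list medians 396 moved by less than the spread between replicates. edgeR's quasi-likelihood test was not run, and voom was the fit run on the recovered reads. Limits: 2 against 3 libraries of 1 line, and T cell genes near 1 CPM. For such genes a few reads set the value and log2(CPM + 1) understates the change. Skeletal muscle and liver secretory genes were also high in isotype replicate 2. Adipocyte genes and, less, liver secretory genes, mainly Hp, were high in isotype replicate 3.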
